A study of Mus musculus with 16 samples.

Results

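DNA repair genes were followed in mouse lines of T-ALL, an acute leukaemia of T-cell precursors, that had become resistant to chemotherapy. The set holds 46 genes of DNA break, crosslink and mismatch repair, taken by symbol from a table of 13474 genes, and all 46 have a row there. RNA was sequenced from 16 cultures of 5 lines: 11 resistant derivatives and the 5 parental lines. Derivatives had been made resistant to cytarabine (lines 2869, 2883 and 7298), vincristine (2696, 2869 and 2883), etoposide (2696 and 2883), prednisone (2641 and 2883) or methotrexate (2883). Parental cultures are labelled as given PBS. Lines 2641, 2696, 2869 and 2883 are Mcm2cre/cre, so that derivatives and controls alike carry the hypomorphic allele of the replication helicase subunit Mcm2. Line 7298 is SCL/LMO1 transgenic. The labels give thymus as the tissue and the same batch date for all libraries, and they give no drug dose, no length of exposure and no statement of how the resistant cultures were selected. Each culture is 1 library, so p-values below measure the spread between lines and cultures, and nothing repeats a given derivative.

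Homologous recombination copies an intact sister chromatid to mend a break, with Brca1, Bard1, Palb2 and Brca2 acting in turn at the cut end. End joining instead ligates the ends directly, through the Ku proteins (Xrcc5 and Xrcc6), the kinase encoded by Prkdc, and ligase Lig4 with Xrcc4 and Nhej1. The Fanconi anaemia proteins release crosslinks between the strands, and the kinases Atm and Atr signal damage to Chek2 and Chek1. Msh6 and Pms2 act in repair of base mismatches, Ung cuts out uracil, and Parp1, Xrcc1, Lig3 and Lig1 act at single-strand breaks and nicks. In developing T cells, end joining also completes the rearrangement of antigen receptor genes. Cytarabine is a cytidine analogue that stalls replication, etoposide traps topoisomerase II on cut DNA, methotrexate blocks folate metabolism, vincristine acts on microtubules, and prednisone acts through the glucocorticoid receptor.

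Many repair genes are transcribed with the cell cycle, so the promoters were read for the letters bound by E2F factors. RefSeq promoters on GRCm38.p6, from 250 bases before to 50 after the start site, were matched for 38 of the 46 genes (44 promoters). On either strand, 1 of the words TTTGGCGC, TTTCCCGC, TTTCGCGC or TTTGCCGC stood in 20.5% of these promoters, against 2.26% of all 32851 promoters of the table. The 8 genes with such a word were Brca2, Bard1, Rad51c, Fancg, Chek2, Xrcc6, Msh6 and Lig1. A match describes letters in a window and says nothing of binding. Of 2 other cell-cycle words, CCAAT stood in 52.3% of the repair gene promoters against 37.4% of all, and TTTGAA in 6.82% against 17.9%. The promoters of 4 genes that recur in the results follow, 5′ to 3′ on the strand of the gene, with the E2F word in capitals: Bard1 at chr1:71102923-71103222 (minus strand), Brca2 at chr5:150522371-150522670 (plus), Chek2 at chr5:110839733-110840032 (plus) and Xrcc6 at chr15:82016119-82016418 (plus). The Xrcc6 start in RefSeq lies inside the span that the deposited table gives the gene, 81987835 to 82040086.
Bard1: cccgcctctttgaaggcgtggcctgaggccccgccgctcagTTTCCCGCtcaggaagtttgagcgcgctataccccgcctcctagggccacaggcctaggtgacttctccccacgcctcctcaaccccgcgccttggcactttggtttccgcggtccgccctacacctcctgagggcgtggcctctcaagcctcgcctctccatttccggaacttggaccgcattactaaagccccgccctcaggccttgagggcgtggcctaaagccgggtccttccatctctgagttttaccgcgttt
Brca2: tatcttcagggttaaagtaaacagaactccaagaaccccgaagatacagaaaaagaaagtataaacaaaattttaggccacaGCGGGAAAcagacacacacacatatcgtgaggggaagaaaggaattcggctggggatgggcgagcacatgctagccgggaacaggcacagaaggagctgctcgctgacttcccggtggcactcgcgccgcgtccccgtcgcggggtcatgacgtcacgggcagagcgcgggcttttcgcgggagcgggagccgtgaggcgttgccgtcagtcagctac
Chek2: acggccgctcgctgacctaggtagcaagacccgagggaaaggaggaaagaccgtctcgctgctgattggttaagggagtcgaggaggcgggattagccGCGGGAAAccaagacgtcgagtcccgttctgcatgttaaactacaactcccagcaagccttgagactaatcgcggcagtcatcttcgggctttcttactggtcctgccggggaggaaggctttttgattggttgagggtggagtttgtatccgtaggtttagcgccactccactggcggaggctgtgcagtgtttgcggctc
Xrcc6: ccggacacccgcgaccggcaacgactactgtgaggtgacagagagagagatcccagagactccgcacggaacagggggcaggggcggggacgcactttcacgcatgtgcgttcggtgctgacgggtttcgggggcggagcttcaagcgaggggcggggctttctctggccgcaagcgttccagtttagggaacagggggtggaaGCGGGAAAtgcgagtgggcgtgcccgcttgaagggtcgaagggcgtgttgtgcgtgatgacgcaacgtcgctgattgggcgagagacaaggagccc

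Values are CPM, reads scaled to the library total, obtained as the deposited FPKM multiplied by the gene's span in kb. Inferred depth was 14066000 to 18956000 reads in the derivatives and 12142000 to 13498000 in the parental lines, so that depth does not overlap between these groups. All 15 T-lineage markers had a row, with sums of 5068 to 10220 CPM in derivatives and 6058 to 9248 in parental lines. Of markers of other cells, 1 of 6 B-cell genes, 2 of 7 myeloid genes, 2 of 8 stromal and epithelial genes and 0 of 6 erythroid genes had a row. The summed B-cell marker was at most 13.2 and 2.53 CPM and the summed myeloid markers at most 25.3 and 34.3 CPM in derivatives and parental lines, while the 2 stromal and epithelial genes summed to 28.5 to 591 CPM and 49.4 to 446 CPM. Mcm2 was at 446 and 321 CPM in the derivative and the parental culture of line 7298, and at 54.0 to 187 CPM in the 14 Mcm2cre/cre libraries. The 5 most abundant genes took 8.81% of reads in the methotrexate-resistant library and 2.79% to 3.98% in the other 15, which lowers the CPM of all other genes there.

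All 46 repair genes were transcribed in the leukaemia lines, at levels that spanned more than an order of magnitude. Per kb of exon, Parp1 (the poly(ADP-ribose) polymerase that senses strand breaks) had a median of 69.5 CPM over the 16 libraries, Xrcc6 (Ku70) 68.6, Msh6 66.8 and the replicative ligase Lig1 52.2 CPM. At the low end stood Nhej1, a partner of Xrcc4 and Lig4, with 1.62 CPM per kb of exon, and Rad51b, a recombination gene, with 1.63. Nhej1 was read from 0.762 to 2.75 CPM in all, where counting error is wide. The other 13 recombination genes lay between these extremes, with Brca1 at 12.3 and Brca2 at 4.95 CPM per kb of exon.

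**Figure D1:**
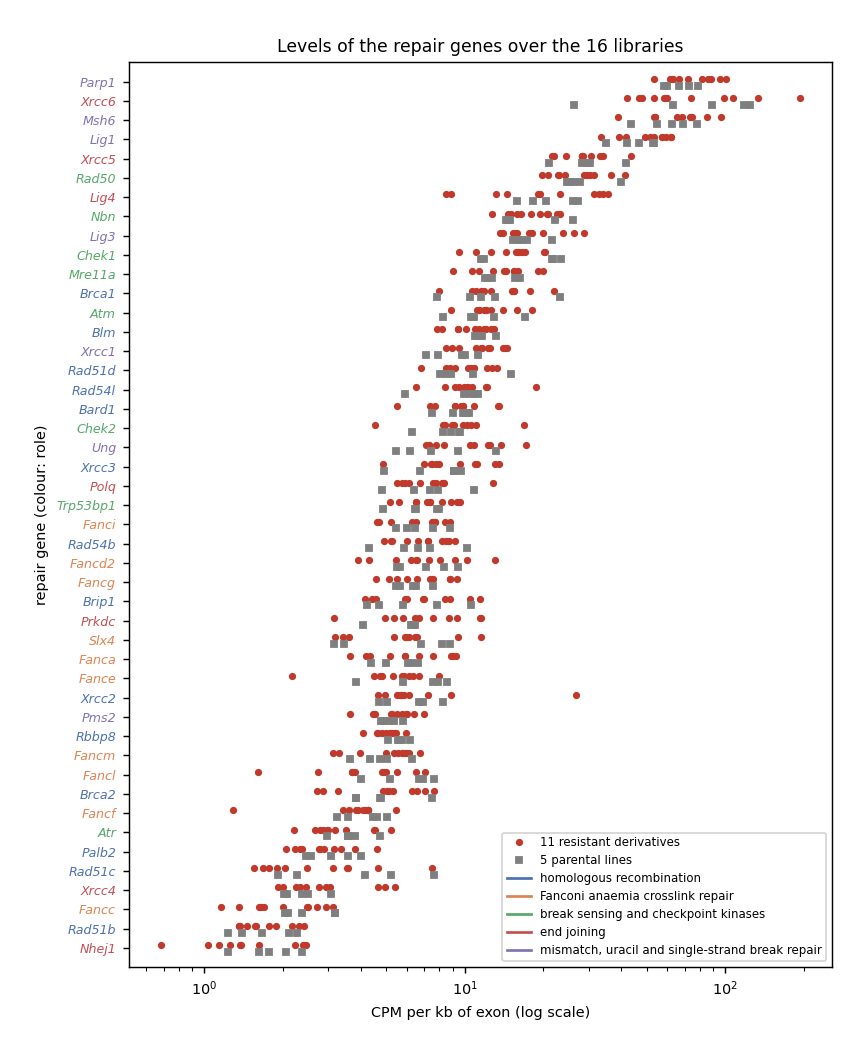
Level of each of the 46 repair genes in CPM per kb of exon (log axis), with 1 point per library: red circles are the 11 resistant derivatives and grey squares the 5 parental lines, and the colour of a name gives its role. Parp1, Xrcc6, Msh6 and Lig1 stand highest and Nhej1 lowest, and the 2 kinds of library overlap for every gene.

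The parental lines already differed from each other in several repair genes. Across the 5 parental libraries the highest value was 1.72 times the lowest for the median repair gene and 2.02 times for the median of all 13261 tested genes. A range of 2-fold or more was seen for 11 of 46 repair genes and for 50.7% of all tested genes. Xrcc6 had the widest range, 4.71-fold, with 118 CPM in line 2696, 284 in 2641, 398 in 7298, 529 in 2869 and 556 in 2883. Rad51c, which acts in recombination, followed with 3.98-fold, from 8.41 CPM in line 2883 to 33.5 in 2641. Brca1 (2.97-fold), the nuclease scaffold Slx4 (2.81-fold) and the helicase Brip1 (2.51-fold) came next. Line 2641 had the highest parental level of Brca1 (198 CPM), Slx4 (67.5 CPM) and Brip1 (79.1 CPM). The helicase Blm was the least variable, 95.9 to 116 CPM.

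Cytarabine resistance, the subject named in the title of the series, could be set against the parental state within 3 lines. No repair gene passed the threshold. The largest differences were higher values of Xrcc1 (the scaffold of single-strand break repair), Prkdc, Bard1 (the partner of Brca1) and Slx4, and lower values of Fancl, the ubiquitin ligase of the Fanconi pathway. Limma called 0 of 46 repair genes and 0% of the 13261 genes tested at an adjusted p under 0.05. At an unadjusted p under 0.05 there were 5 of 46 repair genes, beside 9.42% of all genes, and the 4 higher and 1 lower stand beside 5.38% and 4.04% of all genes, so the share of repair genes is close to the background. The median log2 fold change of the 46 genes was 0.14 and 30 were positive, against a median of 0.02 and 52.9% positive over all genes. By role the medians were 0.23 for the 7 mismatch, uracil and single-strand break genes, 0.23 for the 10 Fanconi genes, 0.17 for the 7 end joining genes, 0.13 for the 14 recombination genes and 0.00 for the 8 break sensing and checkpoint genes. The count at an unadjusted p under 0.05 was 3 without the derivative of 2869 and 8 without either library of 7298. For this and later counts with a library left out, the share of all genes is not given here, so they have no background.

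Xrcc1 had 84.6, 83.6 and 81.7 CPM in the cytarabine-resistant derivatives of 2869, 2883 and 7298, against 46.01, 57.2 and 58.6 CPM in their parental lines. The 3 derivatives lay close together and above every parental library, of which the highest was 65.5 CPM in 2641. The estimate, as a log2 fold change with its SE, was 0.66 ± 0.17 (n = 3, higher in 3 of 3, limma adjusted p = 0.494). Prkdc had 100.1, 115 and 87.8 CPM in the same derivatives, against 81.9, 83.4 and 53.7 CPM in the parental lines. Each derivative was above all 5 parental libraries, and line 7298 was the lowest in both states. The estimate for Prkdc was 0.62 ± 0.21 (limma adjusted p = 0.496). Bard1 had 76.9, 75.9 and 56.0 CPM, against 55.8, 57.2 and 42.5 CPM, ratios of 1.38, 1.33 and 1.32 that are among the most even of the set. Bard1 was estimated at 0.43 ± 0.15 (limma adjusted p = 0.498).

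Slx4 was uneven, with 88.9, 72.4 and 27.6 CPM in the derivatives of 2869, 2883 and 7298, against 51.9, 62.6 and 24.0 CPM in their parental lines, so most of the difference came from line 2869. Slx4 was estimated at 0.40 ± 0.17 (limma adjusted p = 0.524). Fancl had 5.44, 9.19 and 23.8 CPM, against 13.4, 22.5 and 25.8 CPM. In lines 2869 and 2883 the derivative had 0.404 of the parental level (95% exact binomial interval 0.311 to 0.523) and 0.407 (0.333 to 0.497), and in line 7298 it had 0.923 (0.796 to 1.07). Lower values of Fancl were not limited to cytarabine. Fancl was at 0.732 and 0.722 in the etoposide derivatives of 2696 and 2883, and at 0.708 and 0.552 in the prednisone derivatives of 2641 and 2883. The methotrexate derivative had 0.555. The vincristine derivatives of 2696, 2869 and 2883 had 1.26, 1.25 and 0.825. The cytarabine estimate for Fancl was -0.83 ± 0.24 (limma adjusted p = 0.494), and its exons overlap those of Vrk2 on the opposite strand. Next in order of p stood Trp53bp1 (0.27 ± 0.15), a reader of damaged chromatin, on the higher side. On the lower side were Fancf (-0.42 ± 0.32), Rad51c (-0.29 ± 0.28), Fance (-0.22 ± 0.23) and Chek1 (-0.17 ± 0.20), none of which passed. Fancf turned to 0.0505 without the derivative of 2869, and Chek1 to 0.10 without that of 2883.

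All 3 cytarabine derivatives were above their own parental line in 14 repair genes, beside 16.2% of all genes, and below it in 3, beside 12.7%. The 14 were Brca2, Bard1, Rad54b, Xrcc2 and Brip1 (recombination), Fancm and Slx4 (crosslinks), Rad50, Atm and Trp53bp1 (sensing), Prkdc and Lig4 (end joining), and Lig1 and Xrcc1. The 3 were Rad51c, Fancl and Nhej1. The proliferation genes listed for context summed to 9070, 9079 and 6857 CPM in the derivatives of 2869, 2883 and 7298, against 8492, 7669 and 6849 CPM in their parental lines; the part of this difference in the repair genes was not tested.

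**Figure D2:**
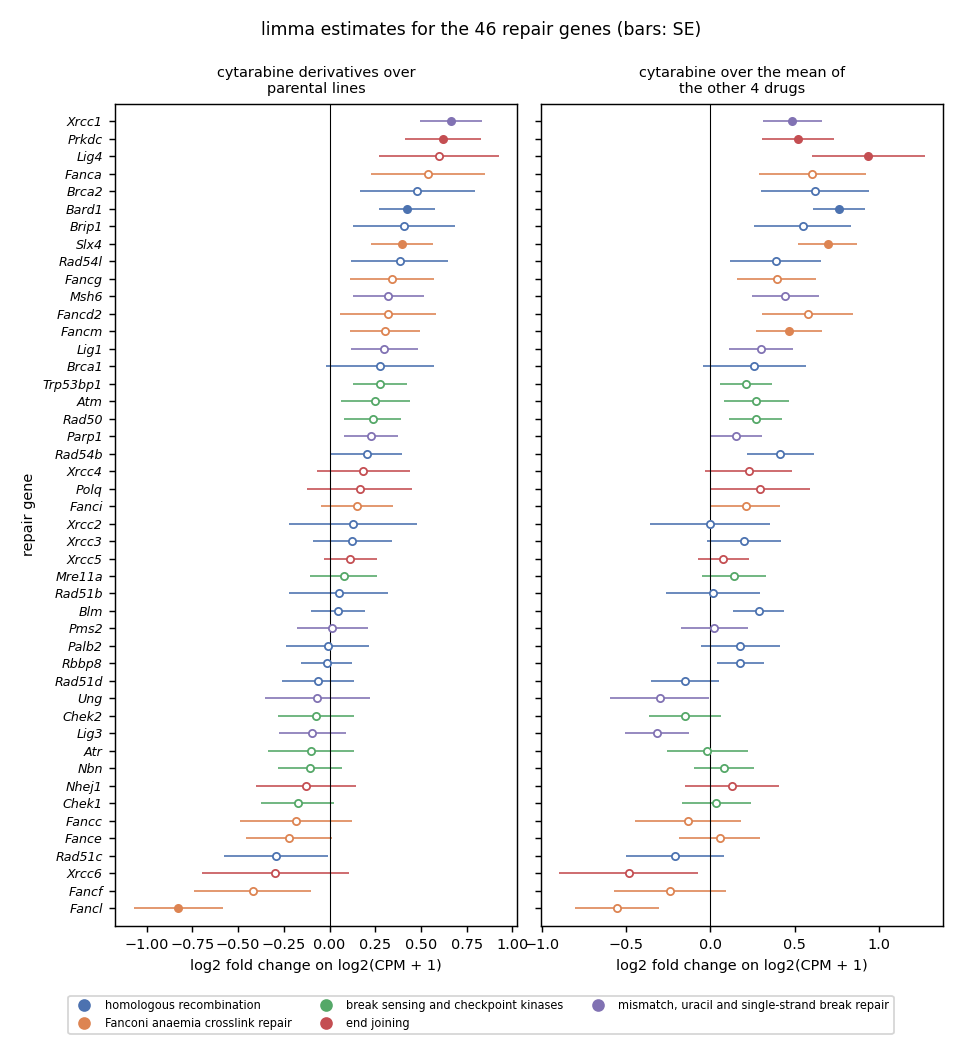
Log2 fold change of each repair gene on the log2(CPM + 1) scale with its SE (bars), for cytarabine-resistant derivatives over parental lines (left) and for cytarabine over the mean of the other 4 drugs (right); filled points have an unadjusted p under 0.05 and colours give the role. Estimates run from Xrcc1 (0.66) at the top to Fancl (-0.83) at the bottom on the left, and Lig4 (0.94), Bard1 (0.76) and Slx4 (0.70) are the highest on the right.

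Cytarabine was next set against the other 4 drugs in the same model, which tests the difference between drugs itself. Limma called 0 of 46 repair genes and 0% of all genes. At an unadjusted p under 0.05 there were 6 repair genes, 6 higher and 0 lower for cytarabine (5 and 2 in a fit with chromosome medians removed), beside 8.17% of all genes (5.94% higher and 2.23% lower). These were Lig4 (0.94 ± 0.33), Bard1 (0.76 ± 0.16), Slx4 (0.70 ± 0.17), Prkdc (0.52 ± 0.21), Xrcc1 (0.49 ± 0.17) and Fancm (0.46 ± 0.20), a fork remodelling translocase. Bard1 had the smallest p, with a limma adjusted p of 0.548. The mean of the other 4 drugs weights each equally. Its methotrexate term rests on 1 library, in which Bard1 was at 0.543 of the parental level and Lig4 at 0.534. Cytarabine derivatives of 2869, 2883 and 7298 had Lig4 ratios of 1.2, 1.3 and 1.2 to their parental lines. Lower Lig4 ratios stood in the vincristine derivatives of 2869 (0.534) and 2883 (0.484) and the etoposide derivative of 2883 (0.326). The remaining derivatives had 1.87 (vincristine, 2696), 1.07 (etoposide, 2696), 1.595 (prednisone, 2641) and 0.855 (prednisone, 2883). The median difference of the 46 genes was 0.20 with 35 positive, against 0.06 and 58.1% positive over all genes. Without the vincristine derivative of 2869 the count at an unadjusted p under 0.05 was 2, without that of 2696 it was 12, and without the etoposide derivative of 2883 it was 10. These counts stand without the share of all genes in the same fits, so they are no result about repair genes in particular.

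In the 6 pairwise contrasts of cytarabine, vincristine, etoposide and prednisone, limma called 0 of 276 values of repair genes, and 23 had an unadjusted p under 0.05. Such a p was held by 10.2%, 7.46% and 6.3% of all genes for cytarabine over vincristine, etoposide and prednisone, by 9.28% and 9.41% for vincristine over etoposide and prednisone, and by 9.08% for etoposide over prednisone; only vincristine over etoposide had a called gene, 0.00754% of the table. Bard1 and Slx4 recurred in all 3 contrasts of cytarabine. Bard1 differed by 0.53 ± 0.17 from vincristine, 0.57 ± 0.20 from etoposide and 0.61 ± 0.21 from prednisone, and Slx4 by 0.70 ± 0.20, 0.69 ± 0.23 and 0.72 ± 0.24. Prkdc, by contrast, recurred in each contrast with prednisone. It stood higher by 1.14 ± 0.29 for cytarabine, 0.82 ± 0.29 for vincristine and 1.23 ± 0.31 for etoposide. The contrasts of 1 drug share its derivatives, and the smallest limma adjusted p of a repair gene among them was 0.418 (Trp53bp1, vincristine over prednisone, 0.71 ± 0.20).

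**Figure D3:**
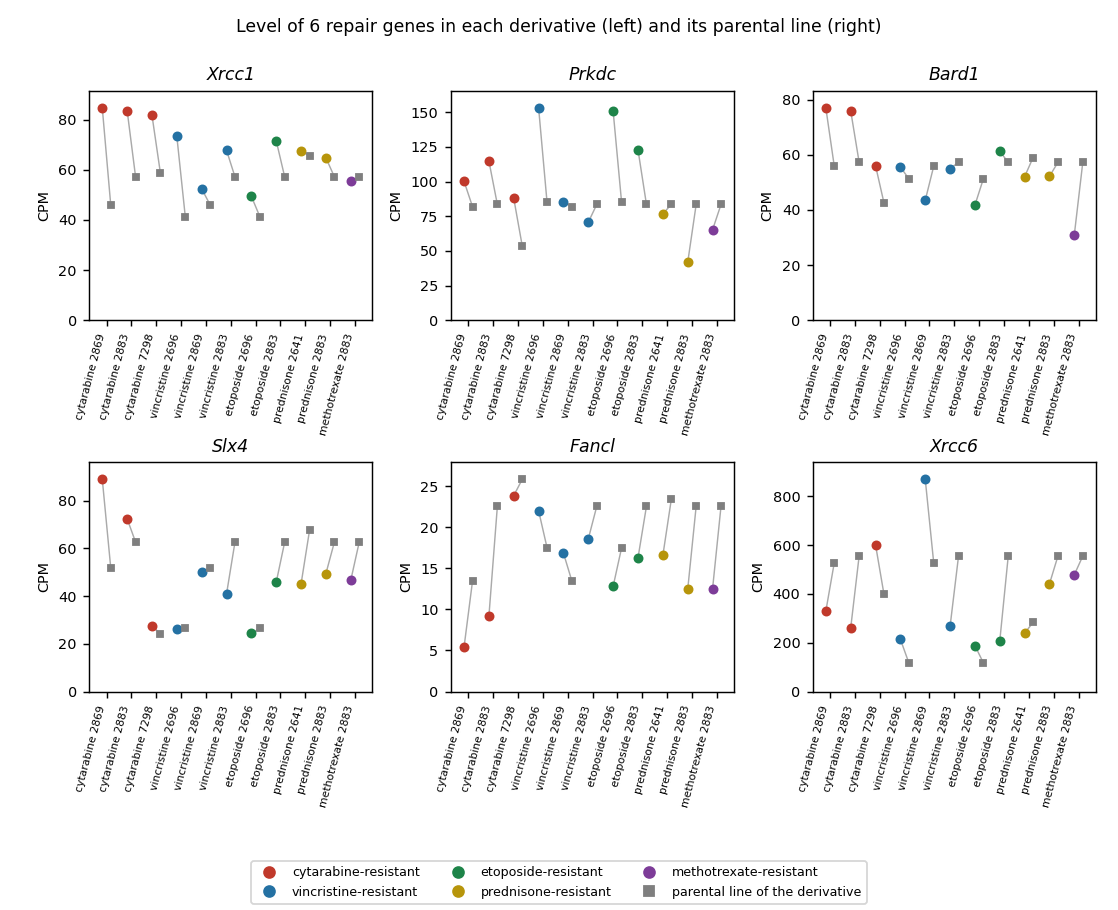
CPM of 6 repair genes in each derivative (coloured circle, left) joined to the parental line it came from (grey square, right), with axes from 0. Xrcc1 is above its parental value in 10 of 11 derivatives, Bard1, Slx4 and Prkdc are above it in all 3 cytarabine derivatives, Fancl is lowest in the cytarabine derivatives of 2869 and 2883, and Xrcc6 moves in opposite directions in different derivatives, also within line 2869.

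Vincristine-resistant derivatives were available from 3 lines. Limma called 0 of 46 repair genes and 0% of all genes, and 3 repair genes had an unadjusted p under 0.05, beside 13% of all genes (5.19% higher and 7.84% lower). Lig3, the ligase partner of Xrcc1, had 191, 209 and 116 CPM in the derivatives of 2696, 2869 and 2883, against 111, 127 and 117 CPM in their parental lines. The first pair stood at 1.71 and 1.65 times the parental level and the derivative of 2883 at 0.989, and the estimate was 0.50 ± 0.18 (limma adjusted p = 0.323). Lig3 exons overlap those of Rffl on the opposite strand. The uracil glycosylase Ung had 67.3, 75.6 and 68.6 CPM, against 29.9, 51.8 and 72.1 CPM, and an estimate of 0.69 ± 0.29 (limma adjusted p = 0.362). The 3 derivatives had similar levels while the parental lines were spread apart. Blm had 82.9, 68.9 and 82.9 CPM, against 95.9, 100.3 and 102.4 CPM, lower in 3 of 3 with no overlap, and an estimate of -0.38 ± 0.15 (limma adjusted p = 0.343).

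Fance, a subunit of the Fanconi core, was at -0.52 ± 0.24 in vincristine derivatives. Xrcc2, which acts in recombination, was at 0.61 ± 0.35 through line 2869 alone: without that derivative its estimate was -0.023. All 3 vincristine derivatives were above their parental line in 6 repair genes and below it in 5, beside 15.2% and 17.8% of all genes. The 6 were Brca1, Rad51d, Brip1, Trp53bp1, Parp1 and Xrcc1. The 5 were Palb2, Blm, Fancc, Slx4 and Chek1. The count at an unadjusted p under 0.05 lay between 0 (without the parental library of 2869) and 5 (without the vincristine derivative of 2883 or the cytarabine derivative of 2869), and was 1 without either the vincristine or the parental library of 2696.

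Etoposide, which leaves topoisomerase-linked breaks, was compared in 2 lines. Limma called 0 of 46 repair genes and 0% of all genes, with 2 repair genes at an unadjusted p under 0.05 beside 8.68% of all genes (3.69% higher and 4.99% lower). Both act in end joining and stood on opposite sides. Prkdc had 150.5 and 123 CPM in the derivatives of 2696 and 2883, against 84.9 and 83.4 CPM in their parental lines, with an estimate of 0.71 ± 0.25 (limma adjusted p = 0.557). Lig4 had 102 and 46.2 CPM, against 94.9 and 142 CPM, and an estimate of -0.90 ± 0.38 (limma adjusted p = 0.568). The low Lig4 was a matter of line 2883, where the ratio was 0.326 (0.297 to 0.356), while in line 2696 it was 1.07 (0.995 to 1.15). Chek2, the kinase downstream of Atm, had 30.6 and 50.8 CPM, against 28.7 and 24.9 CPM (0.53 ± 0.25, limma adjusted p = 0.581). Both derivatives were above the parental line in 13 repair genes and below it in 8, beside 25.9% and 27.3% of all genes. The median of the 46 genes was -0.04, and it turned to 0.045 without the derivative of 2696, when 5 repair genes had an unadjusted p under 0.05. That count was 1 without the derivative of 2883, without the cytarabine derivative of 2869 or 2883, without the vincristine derivative of 2869 or without the parental library of 2869.

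Prednisone was compared in 2 lines, and more repair genes lay below the parental level than above it. Limma called 0 of 46 and 0% of all genes, and 1 repair gene had an unadjusted p under 0.05 beside 8.46% of all genes (4.23% in each direction). Trp53bp1 had 92.6 and 73.5 CPM in the derivatives of 2641 and 2883, against 113 and 111 CPM in their parental lines, with an estimate of -0.42 ± 0.18 (limma adjusted p = 0.570). Its exons overlap those of Tubgcp4 on the opposite strand. Both derivatives had 22 repair genes below the parental line and 4 above it, beside 25.9% of all genes each way. The 4 were Parp1, Lig1, Lig3 and Xrcc1, with log2 ratios in line 2641 of 0.52, 0.0024, 0.14 and 0.045, so that Lig1 and Xrcc1 were level with the parental library there. Of the other 3 genes of their role, Msh6 was below in both derivatives, and Pms2 and Ung were above in 1 each. Of the 8 break sensing and checkpoint genes, 7 were below in both derivatives, with Chek2 the exception. Their role had a median log2 ratio of -0.37 in line 2641 and -0.079 in line 2883, where Atr (-0.0045), Mre11a (-0.0062) and Atm (-0.047) were close to the parental level. Prkdc was at 76.7 and 41.7 CPM, against 83.5 and 83.4 CPM (-0.52 ± 0.25, limma adjusted p = 0.601).

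The counts were more one-sided in line 2641. There 38 of 46 repair genes were below the parental library, among them all 14 recombination genes, with a median log2 ratio of -0.27 against -0.05 for all tested genes. Of all tested genes, 44.9% were above the parental library in that derivative. In line 2883 the prednisone derivative had 26 of 46 below, with a median of -0.02 against 0.05, while 54.3% of all tested genes were above. Proliferation genes summed to 6745 CPM in the 2641 derivative, against 8481 CPM in its parental line, and to 7868 CPM in the 2883 derivative, against 7669 CPM; their part in the repair genes was not tested. The parental library of 2641 also had the highest parental level for 12 of the 14 recombination genes, all but Xrcc3 and Rbbp8. For that count the share over all genes is not given here. The count at an unadjusted p under 0.05 was 2 without either library of 2641, without the vincristine or parental library of 2696 or without the cytarabine derivative of 2869. It was 0 without the prednisone or parental library of 2883 or without either etoposide derivative.

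Methotrexate had 1 derivative, so its values carry no test. In it 35 of 46 repair genes were below the parental level of line 2883, beside 55.9% of all tested genes, with a median log2 ratio of -0.23 against -0.08 for all tested genes. With median-of-ratios scaling, which is less moved by a few abundant genes, 30 were below, with a median of -0.13 against 0.01. With that scaling 51.3% of all tested genes were above. Bard1 had 31.1 CPM, against 57.2 CPM, a ratio of 0.543 (0.480 to 0.613). Ung had 39.0 CPM, against 72.1 CPM (0.541, 0.485 to 0.602), and Lig4 75.7 CPM, against 142 CPM (0.534, 0.494 to 0.576). Rad51b was the highest in ratio, with 8.68 CPM, against 4.62 CPM. That parental value came from 56 reads and was the lowest of the 16 libraries. The cytarabine, vincristine, etoposide and prednisone derivatives of 2883 were also above it, with ratios of 1.45, 1.29, 1.98 and 1.54. No repair gene reached a 2-fold difference in CPM, beside 18.1% of all genes, and with median-of-ratios scaling Rad51b alone did. Proliferation genes summed to 6016 CPM, against 7669 CPM, and their part in these values was not tested.

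Across all 11 derivatives against the 5 parental lines, limma called 0 of 46 repair genes and 0% of all genes. Xrcc1 was the only repair gene at an unadjusted p under 0.05, beside 8.33% of all genes (3.40% higher and 4.93% lower), with an estimate of 0.37 ± 0.15 (limma adjusted p = 0.561). It was above the parental level in 10 of 11 derivatives, from 1.03 in the prednisone derivative of 2641 to 1.84 in the cytarabine derivative of 2869, and at 0.970 in the methotrexate derivative. Chek1 was as one-sided the other way, above the parental level in 1 of 11, and Palb2, Rbbp8 and Fancl were above it in 2. The share of all genes for such counts is not given here, and all derivatives of 2883 share 1 parental library. The median of the 46 genes was 0.02 against -0.01 over all genes. The count at an unadjusted p under 0.05 was 0 without the parental library of 2696 or 2869, and 2 without the cytarabine or the vincristine derivative of 2869.

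Each derivative was then set beside its own parental library, since a difference in 1 culture is averaged away by the tests above. A ratio of 2-fold or more in either direction was reached in 19 values of repair genes over the 11 derivatives. Per derivative 0 to 4 repair genes did so (0% to 8.70% of 46), beside 18.9%, 21.9% and 15.1% of all tested genes in the cytarabine derivatives of 2869, 2883 and 7298, and 21.6%, 22.9% and 21.4% in the vincristine derivatives of 2696, 2869 and 2883. The background was 15.4% and 25.7% in the etoposide derivatives of 2696 and 2883, and 16.9% and 17.2% in the prednisone derivatives of 2641 and 2883. In each derivative the share of repair genes was below the background, a difference that was not tested. Many of the other genes are weakly transcribed, and among genes with a mean of at least 10 CPM, 43 of them repair genes, the background was 5.87% to 15.3%. None was past 2-fold in the cytarabine derivative of 7298, the etoposide derivative of 2696, the prednisone derivative of 2641 or the methotrexate derivative. With median-of-ratios scaling 22 values were past 2-fold, 0 to 5 per derivative: Rad51b and Xrcc4 were added in the etoposide derivative of 2883 (5 genes, 10.87% of 46), Fancc in the prednisone derivative of 2883 (2 genes) and Rad51b in the methotrexate derivative (1 gene), while Fanca was no longer past 2-fold in the cytarabine derivative of 2869 (2 genes).

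**Figure D4:**
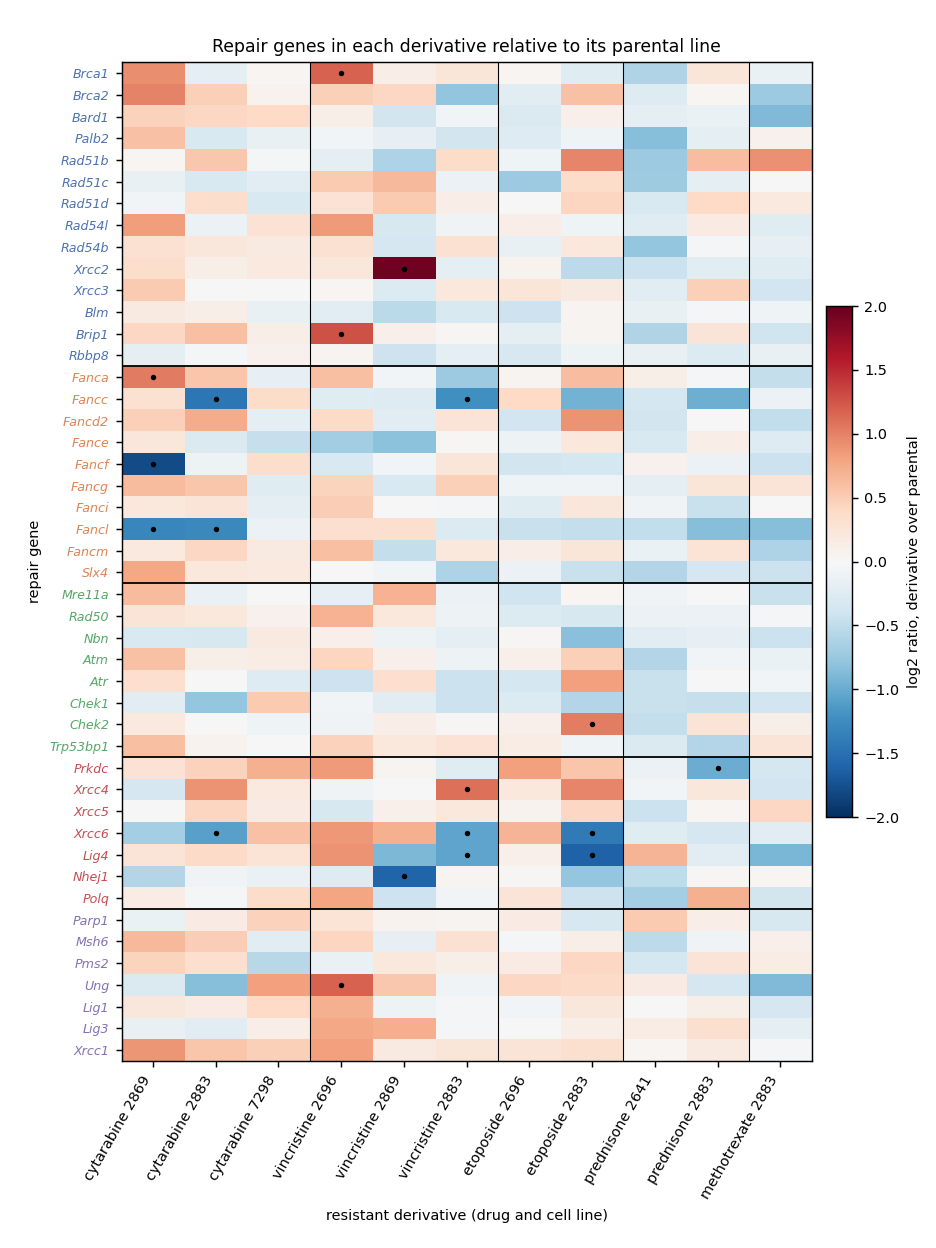
Log2 ratio of each repair gene (rows, grouped and coloured by role) in each derivative over its parental line (columns, grouped by drug); red is higher and blue lower in the derivative, the scale ends at 2 and -2, and dots mark the 19 values of 2-fold or more. Xrcc2 in the vincristine derivative of 2869 is the darkest red, and Fancf in the cytarabine derivative of 2869 the darkest blue.

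The largest ratio belonged to Xrcc2, with 140 CPM in the vincristine derivative of 2869, against 36.2 CPM in its parental line, 3.87-fold (3.51 to 4.27). In the other 15 libraries Xrcc2 stayed between 24.3 and 46.4 CPM. The other values of 2-fold or more upward were Brip1 (2.43-fold), Brca1 (2.27-fold) and Ung (2.25-fold) in the vincristine derivative of 2696, Xrcc4 (2.16-fold) in that of 2883, Fanca (2.05-fold) in the cytarabine derivative of 2869 and Chek2 (2.04-fold) in the etoposide derivative of 2883. Fanca exons overlap those of Zfp276, and Xrcc4 exons those of Tmem167, on the opposite strand.

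Downward, Fancf had 2.19 CPM in the cytarabine derivative of 2869, against 7.52 CPM in its parental line, a ratio of 0.290 (0.195 to 0.429) from 37 and 101 reads. Its exons overlap those of Gas2 on the opposite strand. Nhej1 was at 0.329 (0.158 to 0.647) in the vincristine derivative of 2869, from 13 and 31 reads. Line 2883 held most of the rest. Xrcc6 had 261, 268 and 208.5 CPM in the cytarabine, vincristine and etoposide derivatives of 2883, against 556 CPM in the parental line, ratios of 0.469, 0.482 and 0.375. In line 2696 Xrcc6 went the other way, with 214 and 188 CPM in the vincristine and etoposide derivatives, against 118 CPM, and in line 7298 it had 601 CPM in the cytarabine derivative, against 398 CPM. Within line 2869 Xrcc6 had 330 CPM in the cytarabine derivative and 870 CPM in the vincristine derivative, against 529 CPM in the parental line. Its exons overlap those of Desi1 on the opposite strand. Cytarabine, vincristine and etoposide thus each had derivatives on both sides of the parental level. Both prednisone derivatives were below it, with 240 and 442 CPM in the derivatives of 2641 and 2883, against 284 and 556 CPM.

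Fancc, a subunit of the Fanconi core, had 9.72, 11.4, 13.9 and 13.5 CPM in the cytarabine, vincristine, etoposide and prednisone derivatives of 2883, against 26.5 CPM in the parental line. The methotrexate derivative, with 24.5 CPM, was the only derivative of 2883 near the parental level. Lig4 was at 0.484 (0.447 to 0.523) of the parental level in the vincristine derivative of 2883 and at 0.326 in the etoposide one, while the cytarabine derivative of that line was at 1.30 (1.22 to 1.38). Prkdc was at 0.4998 (0.454 to 0.551) in the prednisone derivative of 2883.

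Some of these genes moved together with the genes beside them. Of 5 other genes within 1 Mb of Xrcc2 with a mean of at least 5 CPM, 4 were also at least 2-fold higher in the vincristine derivative of 2869, with a median log2 ratio of 2.14, and within 5 Mb 45 of 57 were. In the other 10 derivatives at most 1 of those 5 was 2-fold higher. Around Fancc, 9, 13 and 12 of 15 genes within 1 Mb were at least 2-fold lower in the cytarabine, vincristine and etoposide derivatives of 2883, with median log2 ratios of -1.24, -1.31 and -1.51. In the prednisone derivative of 2883, 2 of 15 were, with a median of -0.61. Xrcc2 and Fancc thus each lay in a stretch of chromosome whose genes differed in the same direction. In line 2883 the neighbours of Xrcc6 did not differ as it did. The median log2 ratio of 29 genes within 1 Mb was -0.12, -0.14 and -0.10 in the derivatives of 2883 in which Xrcc6 itself was at -1.09, -1.05 and -1.41. That median was 0.29 and 0.43 in the vincristine derivatives of 2696 and 2869, with Xrcc6 at 0.86 and 0.72. In the etoposide derivative of 2696 it was 0.17, with Xrcc6 at 0.68. The cytarabine derivatives of 2869 and 7298 had 0.10 and 0.05, with Xrcc6 at -0.68 and 0.59. The 1 other gene within 1 Mb of Fancl was at -0.73 and -0.34 in the cytarabine derivatives of 2869 and 2883, where Fancl was at -1.31 and -1.3. Near Fancf, 1 of 2 genes within 1 Mb was at least 2-fold lower in the cytarabine derivative of 2869 (median -1.89), and near Prkdc 2 of 6 were in the prednisone derivative of 2883 (median -0.73). In the cytarabine derivative of 7298, 3 of the 6 genes near Prkdc were at least 2-fold higher (median 0.99), where Prkdc was at 0.71. Their medians were 0.47 and 0.60 in the vincristine and etoposide derivatives of 2696, where Prkdc was at 0.85 and 0.83. In the cytarabine derivatives of 2869 and 2883 they were -0.19 and -0.06, where Prkdc was at 0.29 and 0.46. The etoposide derivative of 2883 had -0.17, with Prkdc at 0.56. DNA copy number was not measured here, and its part in these values was not tested.

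**Figure D5:**
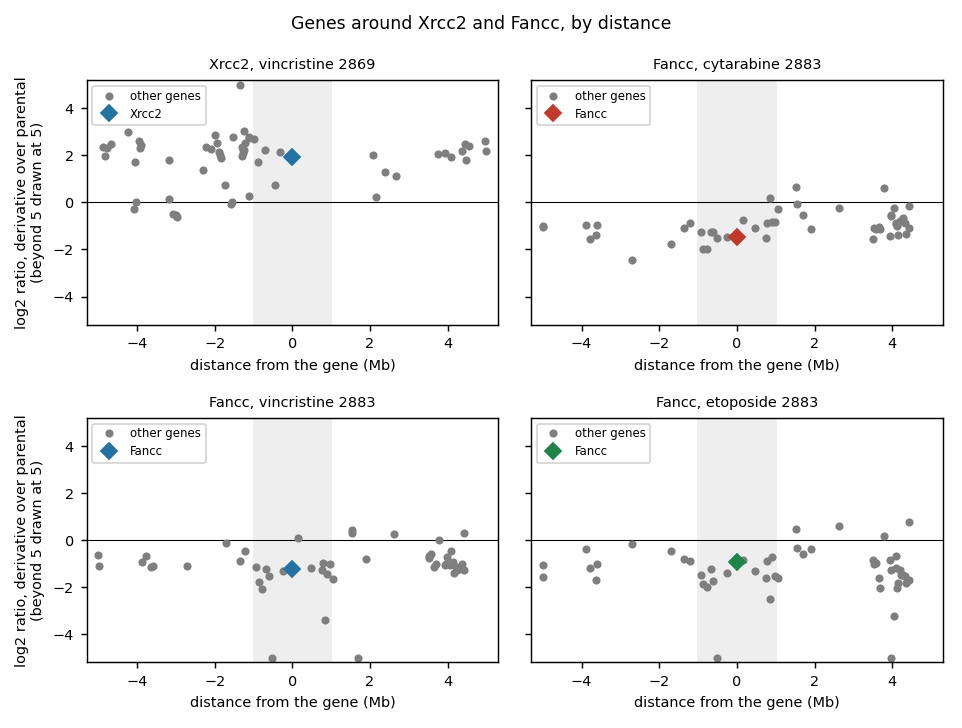
Log2 ratio of a derivative over its parental line for genes within 5 Mb of Xrcc2 (vincristine derivative of 2869) and of Fancc (cytarabine, vincristine and etoposide derivatives of 2883), by distance from the gene in Mb; grey points are other genes with a mean of at least 5 CPM, the diamond is the named gene, and the shaded band is the 1 Mb window. Most genes around Xrcc2 lie near 2 and most around Fancc near -1, as the named genes do.

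Whole chromosomes also shifted. Of 220 medians of log2 ratio (20 chromosomes in 11 derivatives), 13 were at least 0.25 in size. Chromosome 16, which carries Prkdc, had medians of 0.27 in the cytarabine derivative of 7298 and 0.41 and 0.40 in the vincristine and etoposide derivatives of 2696, and these held the 3 largest ratios of Prkdc (1.64, 1.80 and 1.77). Chromosome 11, which carries Brca1, Brip1, Rad50, Rad51c, Rad51d, Fancl and Lig3, had 0.55 in the vincristine derivative of 2696 and 0.38 in that of 2869. Fancl was at 0.33 in each of these derivatives. Chromosome 8, with Lig4, had -0.71 in the vincristine derivative of 2883, where Lig4 was at -1.05, but 0.00 in the etoposide derivative, where Lig4 was at -1.62. The single other gene within 1 Mb of Lig4 was at -1.10 in the vincristine and -1.19 in the etoposide derivative. Chromosome 15, with Xrcc6, had 0.38 in the vincristine derivative of 2869, where Xrcc6 was at 0.72. With the chromosome median taken off, 14 of the 19 values stayed past 2-fold and 3 were gained (Xrcc4 in the cytarabine and etoposide derivatives of 2883, and Rad51b in the etoposide one). Those that stayed included Xrcc2, Fancf, Fancc, Fancl and Xrcc6, while Brca1, Brip1, Fanca, Chek2 and the Lig4 value of the vincristine derivative of 2883 did not. The median of a whole chromosome does not take off the shift of a shorter stretch. After it was taken off, Xrcc2 kept 1.58 in the vincristine derivative of 2869, where genes within 1 Mb had a median of 2.14. A value that stayed is thus not shown to be particular to its gene. Xrcc4 was gained in derivatives in which chromosome 13, which carries it, had medians of -0.40 (cytarabine) and -0.33 (etoposide). A limma fit on values with chromosome medians removed, added after the data were seen, gave a cytarabine log2 fold change of 0.61 ± 0.16 for Xrcc1, 0.41 ± 0.15 for Bard1 and -0.93 ± 0.24 for Fancl, but 0.43 ± 0.20 for Prkdc and 0.21 ± 0.18 for Slx4, which is also on chromosome 16. For vincristine, Lig3 was at 0.20 ± 0.14 in that fit. In the contrast of cytarabine with the other drugs it gave 7 repair genes at an unadjusted p under 0.05, of which Lig3 (-0.36 ± 0.14) and Fancl (-0.59 ± 0.24) were lower for cytarabine, Brca2 (0.68 ± 0.30) was added, and Prkdc (0.43 ± 0.20) and Fancm (0.37 ± 0.18) were no longer among them. No repair gene was called in that fit.

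The SCL/LMO1 line was set beside the Mcm2cre/cre lines without a test, since it is a single line. Both of its libraries lay outside the range of the other 14 in 3 of 46 repair genes, 1 above and 2 below, beside 8.12% of all genes (3.09% above and 5.03% below). Fancl was above them, with 23.8 and 25.8 CPM in the derivative and the parental culture, against 5.44 to 23.4 CPM. Rad54b, a chromatin motor of recombination, was below, with 28.3 and 24.9 CPM, against 30.1 to 59.1 CPM; its exons overlap those of Fsbp on the same strand. Xrcc3, a recombination gene, was also below, with 13.4 and 13.5 CPM, against 18.6 to 37.2 CPM.

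Other genes of these pathways were read from 4 lists. Of 92 tested genes in them, limma called 0 in each contrast. At an unadjusted p under 0.05, 8 were higher and 2 lower for cytarabine, 5 and 5 for vincristine, 1 and 6 for etoposide, 0 and 3 for prednisone, and 4 and 4 over all resistant derivatives. In the same order, 9.42%, 13%, 8.68%, 8.46% and 8.33% of all genes had such a p in either direction, with the shares by direction given above. For cytarabine the recombination and fork genes with the smallest p were Rmi2 (0.96 ± 0.24, limma adjusted p = 0.494), a partner of Blm, the helicase Recql4 (0.56 ± 0.15, limma adjusted p = 0.494) and Sfr1 (-0.41 ± 0.12, limma adjusted p = 0.496), a recombination cofactor. Sfr1 was also at -0.41 ± 0.13 for vincristine and -0.46 ± 0.15 for etoposide. Median log2 fold changes of the 92 genes were 0.10 for cytarabine, 0.03 for vincristine, -0.09 for etoposide and 0.01 for prednisone.

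The methotrexate derivative stood apart in 1 of these lists, the other mismatch and base excision genes. Their sum was 21389 CPM there, against 1111 CPM in the parental culture of 2883 and 921 to 1136 CPM over the 15 other libraries. Msh3, which acts in the recognition of mispaired loops, made up this difference: it had 20449 CPM, against 61.7 CPM, a ratio of 331, and 34.3 to 120 CPM in the 15 other libraries. Without Msh3 the list summed to 940 CPM, against 1049 CPM. Of the 92 genes, 5 were at least 2-fold higher in this derivative (Msh3, Rad17, Dclre1a, Neil2 and Parp3) and 1 was lower (Poll), beside 18.1% of all genes in either direction. With 1 derivative these values carry no test, and Msh3 was named after its values were seen.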

How the data were processed

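RNA was sequenced from 16 cultures. The deposited file holds FPKM, computed by the authors, for 13474 genes. Stranded mRNA libraries were made, per the labels' protocols. Cutadapt, STAR, Partek and the mm10 build appear, without versions, in the submitters' processing notes, while which annotation was counted, and with which strand setting, is not given in the sources used here. Throughout the 13474 rows the FPKM length is the whole span of the gene, so deposited FPKM was multiplied by span to give CPM. A constant of 0.1 read per gene lies in the values, and the steps between low values give the depth. Only 70.5% to 75.7% of values between 0.5 and 200 reads lay within 0.05 of a whole read, too few for a test on counts. Coordinates are those of the table; 45 of 46 members have the same in GENCODE vM21, from which exon lengths came.

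The tests used R 4.3.3 and its package limma 3.58.1, with a trended eBayes, on log2(CPM + 1), over 13261 genes with at least 1 CPM in at least 2 libraries, with terms for line and drug (6 residual degrees of freedom) or line and resistance (10). Fold changes are on that log2 scale, derivative over parental, with two-sided p-values adjusted by Benjamini-Hochberg over all genes at 0.05. The fit was tested on simulated data. The line number pairs a derivative with its parental line, per the labels, and each derivative correlated best with its own parental library in 11 of 11 cases (r from 0.91 to 0.98). Ratios within a line carry 95% exact (Clopper-Pearson) intervals on inferred reads, which cover counting error only. Ratios of neighbouring genes and chromosome medians used CPM + 0.01. The other pathway genes are reported by counts and few names. Some results on genes outside the 46 are not reported here. Named are, in each tested comparison, up to 5 members per direction with the smallest p, all members past 2-fold in a derivative, and the 5 of widest parental range; further members were named after their values were seen. Members and lists were chosen with earlier results of these data known. Alternatives were a fit without the line block, another pseudocount, no filter, log2(FPKM + 1), median-of-ratios and quantile scaling, and leaving out each library; the 10 CPM background and the removal of chromosome medians were added after the data were seen.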

Additional observations from a re-analysis of the deposited data

Results flagged for a closer look

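Parental values of 4 repair genes had 1 line that stood apart from the other 4 by Dixon's criterion, which chance meets in about 1 of 20 groups, and 46 genes were examined. Brca2 was at 102.6 CPM and Rad50 at 213.5 CPM in the parental library of line 2641, each above the other 4 parental lines. Rad54l was at 45.68 CPM in the parental library of 2696, and Prkdc at 53.68 CPM in that of 7298, each below the other 4. Rad54l shares exons with Lrrc41 on the opposite strand.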

How the results depend on the processing

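No repair gene was called under any of the alternatives run. Counts at an unadjusted p under 0.05 in this section stand without the share of all genes in the same fit. Without the replicate block by line, that is without pairing a derivative with its parental line, repair genes at an unadjusted p under 0.05 numbered 2 for cytarabine, 1 for etoposide, 0 for prednisone, 3 for cytarabine against the other drugs and 9 of 276 in pairwise contrasts; there Slx4 turned to 0.14 for prednisone and Xrcc6 to 0.19 for cytarabine against the other drugs. On log2(FPKM + 1), where 35 of 46 repair genes were tested, the counts were 2 for cytarabine, 1 for etoposide, 0 for prednisone and 13 of 210 pairwise. Quantile normalization gave 2 for prednisone. With chromosome medians removed, a choice made after seeing the data, the counts were 3 for cytarabine, 3 for prednisone and 2 over all resistant derivatives. Leaving out each library in turn gave 3 to 8 for cytarabine, 0 to 5 for vincristine, 1 to 5 for etoposide, 0 to 2 for prednisone, 0 to 2 over all resistant derivatives, 2 to 12 for cytarabine against the other drugs and 15 to 30 pairwise. Median log2 fold changes of the 46 genes then ranged from 0.06 to 0.21 for cytarabine, -0.09 to 0.10 for vincristine, -0.19 to 0.045 for etoposide, -0.27 to 0.01 for prednisone, -0.02 to 0.10 over all and 0.16 to 0.33 for cytarabine against the other drugs. Single estimates turned for Fancf (0.0505 without the cytarabine derivative of 2869, range down to -0.73) and Chek1 (0.10 without that of 2883, down to -0.47) for cytarabine, Xrcc2 (-0.023 without the vincristine derivative of 2869, up to 0.98) for vincristine, Xrcc3 (-0.22 without the prednisone derivative of 2883, up to 0.46) for prednisone, and Ung (0.072 without the cytarabine derivative of 2883, down to -0.55) for cytarabine against the other drugs. The last contrast could not be fitted without the methotrexate library. The cause of these moves was not tested. Fancf, Nhej1 and Rad51b, below 10 CPM in each library, are limited most by counting error.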

Other observations

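The stretch of chromosome 5 that carries Xrcc2 also carries Abcb1a, the gene of the drug efflux pump P-glycoprotein, 16.9 Mb away. In the vincristine derivative of 2869, 39 of 51 genes between the pair with a mean of at least 5 CPM were at least 2-fold higher than in the parental line, with a median log2 ratio of 2.22. Abcb1a itself was at 3909 CPM there, against 15.8 CPM in the parental line. In the vincristine and etoposide derivatives of 2883, where Abcb1a was at 5237 and 3757 CPM, 8 of the 51 genes were at least 2-fold higher, the medians were 0.09 and 0.08, and Xrcc2 had 30.5 and 24.3 CPM, against 34.9 CPM in the parental line. In the vincristine and etoposide derivatives of 2696, Abcb1a was at 178 and 286 CPM, against 4.24 CPM in the parental line, 4 and 2 of the 51 genes were at least 2-fold higher, and the medians were -0.08 in both.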
